A study of Mus musculus with 21 samples.

Results

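The comparison described here set knockdown of Stag2 against knockdown of Stag1 in Pds5a-/- mouse embryonic stem cells (mESCs), using the 6 of 21 RNA-seq libraries labelled Pds5a-KO siStag2 (3 libraries) and Pds5a-KO siStag1 (3 libraries). The cells were male v6.5 mESCs with CRISPR edits in exon 2 of both Pds5a alleles, and every Pds5a-/- library came from 1 clone, so an effect of the clone cannot be told apart from an effect of the genotype. Both groups lacked PDS5A, and both received 50 nM siRNA, with RNA collected 48 h later. The 3 Pds5a-KO siGLO libraries, from the same clone given the siGLO transfection control, were used as the common reference level. The 12 remaining libraries (3 per condition) were WT siGLO, WT siPds5b, Pds5b-KO siGLO and Pds5a-KO siPds5b. The study calls its 3 RNA-seq replicates of WT, Pds5a-/- and Pds5b-/- cells biological replicates. The labels do not say whether replicates were separate cultures, so the p-values measure the spread between these libraries, which may be partly technical.

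Cohesin is a ring of SMC1A, SMC3 and RAD21 that holds sister chromatids together and folds interphase chromatin into loops, largely between sites bound by CTCF. Each ring carries either STAG1 or STAG2, mutually exclusive subunits encoded by paralogous genes, and can be bound by PDS5A or PDS5B, which help both to release cohesin and to keep it on chromatin. The comparison therefore asked what differs between cells left mainly with one STAG paralog and cells left mainly with the other, when PDS5A is missing in both.

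The siStag1 and siStag2 libraries held between 17311090 and 20791962 counts, within the range of all 21 libraries (17311090 to 23989198), and between 16887 and 17209 genes had a count. Values are given below as normalized counts, which are counts scaled for library size and composition to the same mean depth, in the order of replicates 1, 2 and 3. The 45S ribosomal RNA precursor Rn45s, which poly-A selection should remove, took 1.39%, 0.643% and 2.68% of the counts in the siStag2 libraries, 0.874%, 0.940% and 0.678% in the siStag1 libraries and 1.44%, 0.527% and 0.619% in the siGLO libraries. Carry-over of such RNA was thus highest in replicate 3 of siStag2, and its part in the results was not tested. Replicate 1 of siStag1 and replicate 1 of siGLO stood apart from replicates 2 and 3 in markers of endoderm, and results that this touches are given without replicate 1 of siStag1 below.

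The siRNA sequences are not shown because no file used here holds them. The coding sequences of Stag1 (transcript Stag1-206, 3774 bases) and Stag2 (transcript Stag2-203, 3804 bases) were identical at 2634 of 3729 aligned positions (70.6%), and the longest stretch they shared was 23 bases. Only 4 shared stretches had 19 bases or more. They are printed because they mark where a short duplex of 19 bases or more could match both coding sequences. Reads of the coding sequences that are longer than such a stretch can be told apart between the paralogs. Untranslated regions, other transcripts and imperfect matches were not searched. All letters are lower case, since each stretch is the same in both genes, and coordinates are from the mm10 annotation, first in Stag1 and then in Stag2, both on the plus strand.
Run 1, chr9:100848680-100848702 and chrX:42229340-42229362: cttgacaaagaatatgatgttgc
Run 2, chr9:100880834-100880854 and chrX:42236347-42236367: tgaaagactgggaatgtatga
Run 3, chr9:100945941-100945960 and chrX:42260689-42260708: agtgaattttcttctaaact
Run 4, chr9:100942698-100942717 and chrX:42258086-42258105: aaaattcagtgtgctaagac

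Stag1 (chr9:100597798-100959375) was at 2791, 2553 and 2761 normalized counts with siStag2, 617, 600.05 and 506 with siStag1 and 2515, 2293 and 2475 with siGLO. All 3 siStag1 libraries were far below every other library. Stag2 (chrX:42149317-42277185) was at 851, 954 and 821 with siStag2, 4718, 3891 and 3677 with siStag1 and 3561, 2930.2 and 3275 with siGLO. Here all 3 siStag2 libraries were far below the rest, so the targeted transcript was low in each library that should lack it. The transcript left was 23.7% of the siGLO mean for Stag1 after siStag1 (25.4%, 24.7% and 20.9% by replicate) and 26.9% for Stag2 after siStag2 (26.1%, 29.3% and 25.2%), so the depth of the knockdowns was close. In the direct comparison the log2 fold change, siStag2 against siStag1, was 2.23 ± 0.09 (SE) for Stag1 (adjusted p = 1.14e-14 by edgeR's quasi-likelihood test) and -2.23 ± 0.10 for Stag2 (adjusted p = 5.77e-13).

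The paralog that was not targeted was at or above its siGLO level. Stag2 after siStag1 averaged 126% of siGLO (log2 fold change 0.33 ± 0.10, adjusted p = 0.148 by edgeR), and Stag1 after siStag2 averaged 111% (0.15 ± 0.08, adjusted p = 0.239). Neither passed the threshold of 0.01. Stag3, the meiotic paralog, was at 1094, 789.9 and 1012 with siStag2, 962, 1205 and 1275 with siStag1 and 809.5, 764 and 1033 with siGLO, and these ranges overlapped (-0.25 ± 0.15, adjusted p = 0.386 by edgeR).

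Per kilobase of exon, which allows the paralogs to be added, siGLO libraries held 909 ± 68.6 (SD, n = 3) normalized counts of Stag1 plus Stag2. The sum was 742 ± 94.7 with siStag1 (81.7% of siGLO) and 576 ± 11.1 with siStag2 (63.3% of siGLO, and 77.5% of the siStag1 sum). Stag1 made up 43.2% ± 1.28 of the sum with siGLO, 12.6% ± 0.932 with siStag1 and 75.9% ± 2.33 with siStag2. The siStag1 and siStag2 libraries therefore differed in the total STAG transcript as well as in which paralog supplied it, and the siStag2 sums lay below all siStag1 sums. The exact permutation test gave p = 0.1 for this difference and p = 0.1 for siStag2 against siGLO, which is the smallest p that 3 against 3 libraries allow, and p = 0.2 for siStag1 against siGLO (two-sided). In bulk RNA, less transcript in every cell and fewer cells that express it cannot be told apart.

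**Figure D1:**
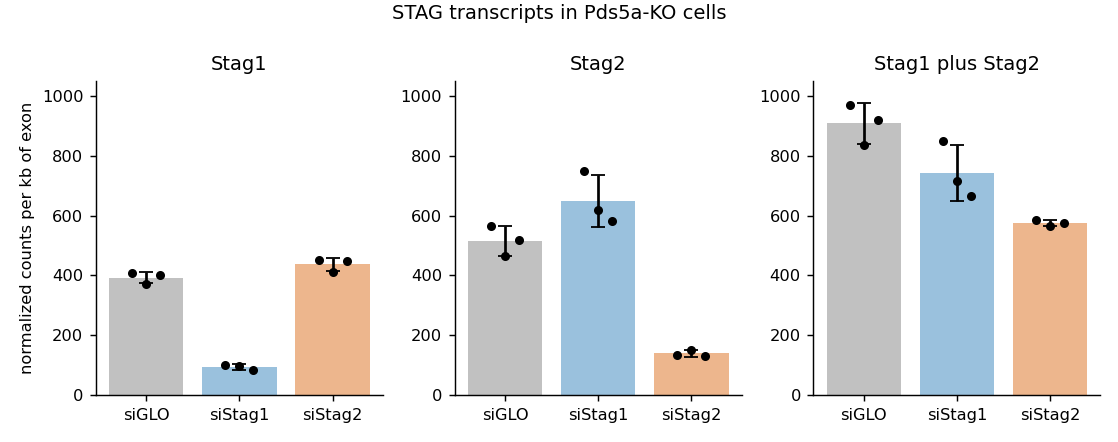
Normalized counts per kilobase of exon of Stag1, Stag2 and their sum in Pds5a-KO libraries given siGLO, siStag1 or siStag2; points are libraries and bars are group means. Each siRNA lowers its own target (23.7% and 26.9% of siGLO left), and the sum is lowest with siStag2 (576 ± 11.1, against 742 ± 94.7 with siStag1).

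None of the other cohesin genes examined was called in the direct comparison. Among the 6 genes of the core ring, Smc1a was at 4322, 4787 and 4892 with siStag2 and 5229, 4764 and 4530.3 with siStag1 (log2 fold change -0.05). Smc3 differed by -0.03 and Rad21 by -0.02, and for all of them the libraries overlapped. Pds5b, the PDS5 paralog left in these cells, was at 2812, 2586 and 2656 with siStag2 and 2472, 2418 and 2419.5 with siStag1, with no overlap but a log2 fold change of only 0.14 ± 0.11 (adjusted p = 0.496 by edgeR). The loader Nipbl differed by 0.15 and Ctcf by -0.02. Pds5a transcript was still counted (4686, 4398 and 4349 with siStag2, 4704, 4609 and 4112 with siStag1), and because the edits lie in 1 exon the count checks nothing about the protein. Of the 6 core ring genes, the 7 PDS5, WAPL and release genes and the 13 genes for loaders, acetyltransferases and CTCF that were tested, none was called.

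Across the transcriptome, 59 of 14963 tested genes differed between siStag2 and siStag1 at an adjusted p under 0.01 (edgeR's quasi-likelihood test), which is 0.394% of those tested. Of these, 25 were higher with siStag2 (0.167%) and 34 were lower (0.227%). The higher genes included the muscle genes Actc1 and Tnnc1, the focal adhesion genes Tgfb1i1 and Ilk and the Wnt target Axin2, and the lower genes included the pluripotency factors Pou5f1 and Klf4, the Hedgehog targets Gli1 and Hhip and the ligand Fgf17. Stag1 and Stag2 themselves are 2 of the 59. Most differences were small. Of the higher genes, 6 differed by less than 0.5 on the log2 scale, 10 by 0.5 to 1 and 9 by more than 1, and of the lower genes the counts were 7, 21 and 6. The median size over the 59 genes was 0.75, and the median log2 fold change over all tested genes was 0.008. At an unadjusted p under 0.05 there were 2971 genes (19.9%), and at an adjusted p under 0.05 there were 358.

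The siStag2 and siStag1 libraries did not overlap in 3719 of the 14963 genes (24.9%), and all 59 called genes were among them. The number called depended on every library and on the model. Leaving out 1 library left 6 genes without replicate 1 of siStag2, 10 without its replicate 2 and 11 without its replicate 3, and 12, 10 and 19 without replicates 1, 2 and 3 of siStag1. DESeq2 called 275 genes (146 higher and 129 lower), including all 59. Stag1, Stag2, Tsn and Gpx2 were called under each of the 13 settings tried, whereas Pou5f1 and Lgals9 were called under only 4.

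**Figure D2:**
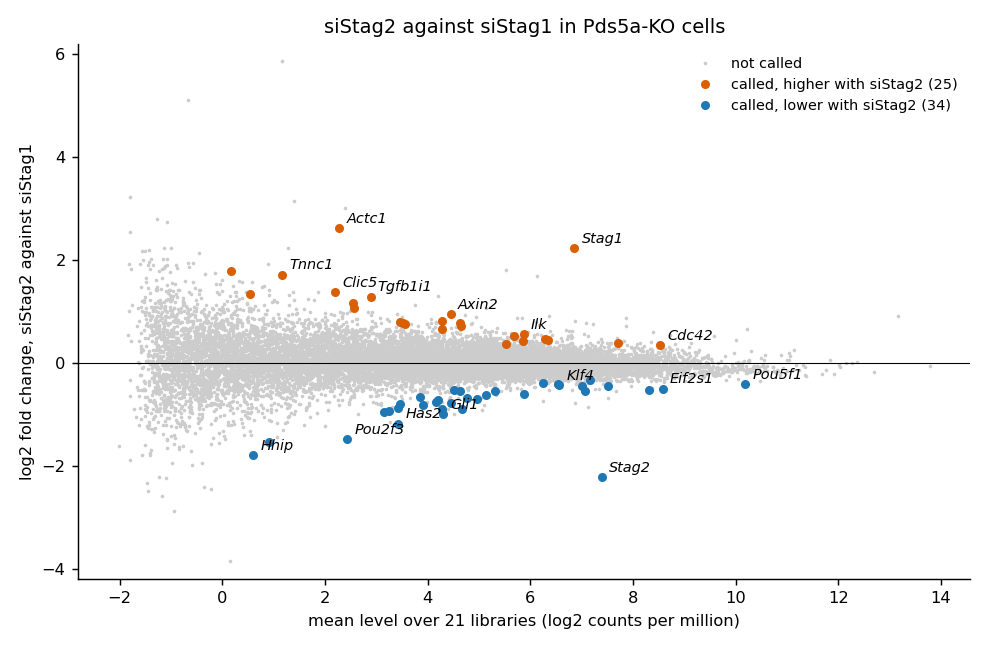
Log2 fold change of siStag2 against siStag1 (y axis) against the mean level over the 21 libraries in log2 CPM (x axis) for the 14963 tested genes. Orange points are the 25 genes called higher with siStag2 and blue points the 34 called lower at an adjusted p under 0.01. The abundant called genes Pou5f1 (-0.41) and Cdc42 (0.35) sit close to 0, while the targeted genes Stag1 (2.23) and Stag2 (-2.23) do not.

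The gene with the largest increase was Actc1 (chr2:114047282-114053548), which encodes cardiac alpha-actin. It was at 259.6, 316 and 203 with siStag2, 21.3, 58.9 and 47.2 with siStag1 and 28.4, 76.7 and 48.2 with siGLO. Every siStag2 library was above every library of both other groups, and the siStag1 and siGLO libraries overlapped. The log2 fold change against siStag1 was 2.62 ± 0.42 (a 6.15-fold difference, adjusted p = 0.00549 by edgeR), the largest among the 59 genes. The raw counts behind it were 266, 276 and 199 with siStag2 and 22, 53 and 48 with siStag1.

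Tnnc1 (chr14:31208312-31211729), the troponin C of heart and slow muscle, was also higher, but with another pattern. It was at 67.3, 89.4 and 108 with siStag2, 18.4, 28.9 and 33.4 with siStag1 and 47.7, 73 and 81 with siGLO. The siStag2 libraries overlapped with siGLO while those with siStag1 were below both. Its log2 fold change was 1.71 ± 0.33 (adjusted p = 0.0078 by edgeR). Tgfb1i1 (chr7:128246812-128255699), a LIM protein of focal adhesions also known as Hic-5, was at 318, 264 and 243 with siStag2, 74.6, 134 and 129.8 with siStag1 and 84.3, 177 and 135 with siGLO. All siStag2 libraries were above the others (1.29 ± 0.25, adjusted p = 0.00841 by edgeR).

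Ranks are given among called genes with a mean log2 CPM (counts scaled to a common library total) of at least 1, which leaves out the low genes Stmn4 (1.78) and Sh3bgr (1.34). Among the remaining genes with the largest increases, Clic5 (chr17:44188584-44280172), a chloride intracellular channel family protein found with the actin-membrane linker ezrin, was at 152, 150.2 and 190.1 with siStag2 and 65.9, 58.9 and 64.9 with siStag1 (1.37 ± 0.22, adjusted p = 0.00201 by edgeR). F5 (chr1:164151838-164220277), coagulation factor V, was at 208, 224 and 162 and 58.1, 116 and 93.4 (1.16 ± 0.21). Cyp2b23 (chr7:26665227-26686437), a cytochrome P450 gene, was at 156, 149 and 157 and 87.2, 75.6 and 59 (1.06 ± 0.18). For F5 and Cyp2b23 the siStag1 libraries overlapped with siGLO and those with siStag2 lay above both. For Clic5 the siStag1 libraries lay below siGLO and those with siStag2 above it. Cyp2b23 belongs to a family of similar genes, so reads may have been split among its copies.

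Axin2 (chr11:108920349-108950783), which encodes a scaffold of the beta-catenin destruction complex and is itself induced by Wnt signalling, was at 579, 470.1 and 494 with siStag2, 246, 249 and 309 with siStag1 and 292, 382 and 474 with siGLO. The siStag2 libraries were above all siStag1 libraries but overlapped with siGLO in this gene (0.94 ± 0.17, adjusted p = 0.00696 by edgeR). Sun2 (chr15:79724070-79742536), which spans the inner nuclear membrane and links the nucleus to the cytoskeleton, was at 613, 580.1 and 502 with siStag2 and 307, 314 and 341 with siStag1 (0.82 ± 0.15). Dennd3 (0.79), Nhsl1 (0.78) and Gatsl2 (0.77) completed the 12 largest increases of that ranking on the log2 scale.

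Smaller increases in abundant transcripts were also called. These genes were outside the 12 largest and were chosen after their values were seen. Ilk, the integrin-linked kinase of focal adhesions, was at 1757, 1660.1 and 1509 with siStag2, 981, 1161 and 1202 with siStag1 and 1028, 1199 and 1108 with siGLO, so the siStag2 libraries were above both other groups (0.56 ± 0.09, adjusted p = 0.00201 by edgeR). Cdc42, a small GTPase that controls cell polarity and the actin cytoskeleton, was at 6915, 8018 and 7419 with siStag2, 6216, 5675 and 5679.6 with siStag1 and 7628, 7798 and 7821 with siGLO. In this gene siStag1 lay below siGLO (-0.40 ± 0.07, adjusted p = 0.0032 by edgeR) and siStag2 did not stand above it (-0.06 ± 0.07). Rhoc, another small GTPase, differed by 0.46 ± 0.09, Neo1, a netrin and repulsive guidance molecule receptor, by 0.43 ± 0.08, and Zc3hav1, an antiviral RNA-binding protein, by 0.66 ± 0.13.

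The largest decrease after Stag2 among genes of that ranking was in Pou2f3 (chr9:43123939-43210369), a POU transcription factor known for specifying tuft cells. It was at 19.5, 29.8 and 27.6 with siStag2, 54.3, 67.8 and 92.4 with siStag1 and 62, 111 and 112 with siGLO. The siStag2 libraries were below all others, and the siStag1 libraries overlapped with siGLO. Its log2 fold change was -1.48 ± 0.28 (adjusted p = 0.00696 by edgeR). Fgf17 (chr14:70636203-70642268), a secreted FGF ligand, was at 264, 297 and 254 with siStag2, 416, 548 and 555 with siStag1 and 412, 539 and 448 with siGLO, again with only the siStag2 libraries apart (-0.90 ± 0.13, adjusted p = 0.00121 by edgeR).

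In Has2 (chr15:56665627-56694539), which makes hyaluronan, the siStag1 libraries were the ones that stood apart. It was at 92.7, 87.1 and 89.9 with siStag2, 210.3, 200.02 and 204 with siStag1 and 114, 90.7 and 115 with siGLO, so the siStag1 libraries lay above the siGLO libraries and the siStag2 libraries overlapped with them (-1.18 ± 0.22, adjusted p = 0.00776 by edgeR). Gli1 (chr10:127329882-127341974), a zinc-finger transcription factor and target of Hedgehog signalling, was at 283, 249.9 and 317 with siStag2, 482, 591 and 634 with siStag1 and 299.6, 397 and 366 with siGLO. It showed the same order, with siStag1 above siGLO (-1.004 ± 0.15, adjusted p = 0.00114 by edgeR). Stk31 (chr6:49395604-49469501), a kinase-like gene of germ cells, was at 112, 120.4 and 121 with siStag2, 214, 220.02 and 219 with siStag1 and 123, 123 and 115 with siGLO. The spread within each group was small and the siStag2 and siGLO libraries overlapped (-0.89 ± 0.17, adjusted p = 0.00776 by edgeR).

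Gpx2 (chr12:76792333-76795554), a glutathione peroxidase, had one of the most stable decreases, at 225, 216 and 272 with siStag2, 430.2, 428 and 474 with siStag1 and 441, 432 and 366 with siGLO (-0.90 ± 0.11, adjusted p = 0.000118 by edgeR). Lgals9 (chr11:78962974-78984946), which encodes the secreted lectin galectin-9, was at 96.6, 104 and 110.4 with siStag2, 256, 177 and 175 with siStag1 and 363, 254 and 253 with siGLO (-0.97 ± 0.19, adjusted p = 0.00996). For this gene the siStag1 libraries overlapped with siGLO only through replicate 1. Jph4, a junctophilin (-0.93), Myb, a transcription factor of progenitor cells (-0.83), Gna14, a G protein alpha subunit (-0.81), and Mtap7d3, a microtubule-associated protein (-0.79), completed the 12 largest decreases of that ranking on the log2 scale.

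Some abundant transcripts outside the 12 largest decreases, again chosen after their values were seen, differed by less but with little spread. Tsn, the nucleic acid-binding protein translin, was at 1848, 2022 and 1858 with siStag2, 2740.1, 2877 and 2782 with siStag1 and 2916, 2764 and 2622 with siGLO (-0.55 ± 0.06, adjusted p = 1.92e-05 by edgeR). Eif2s1, the alpha subunit of translation initiation factor eIF2, was at 5347, 6131 and 5995, 8817, 8146 and 7797 and 8607, 8259 and 7687 in the same order (-0.50 ± 0.07, adjusted p = 0.00103). In both genes the siStag2 libraries were below all siStag1 and siGLO libraries, which overlapped. Sod2, the mitochondrial superoxide dismutase, was at 1412, 1589 and 1677 with siStag2, 2097, 2119 and 2197 with siStag1 and 2861, 2616 and 2601 with siGLO (-0.46 ± 0.07, adjusted p = 0.00114 by edgeR), so here both knockdowns lay below siGLO and siStag2 lay lower. Sod2 and Eif2s1 were each called under 12 of the 13 settings.

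**Figure D3:**
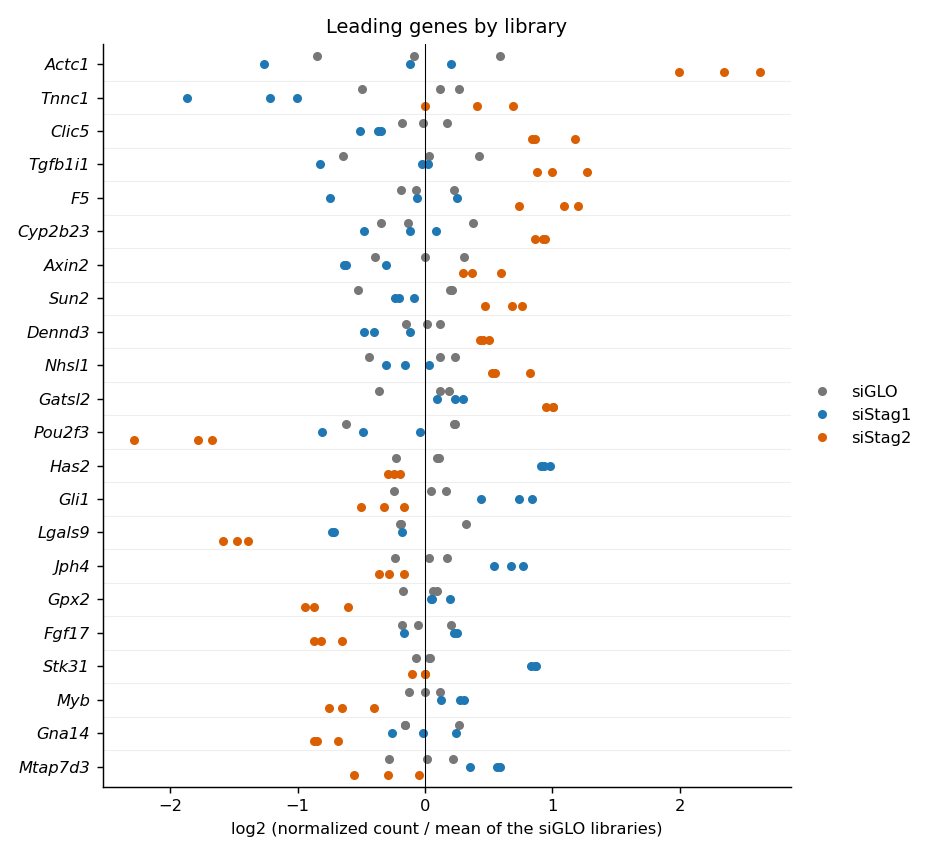
Normalized counts of the genes with the 12 largest increases and 12 largest decreases among called genes whose log2 CPM averaged 1 or more, without Stag1 and Stag2, each divided by the siGLO mean and shown on a log2 scale (x axis), with 1 point per library. Actc1, Clic5 and F5 are high with siStag2, Tnnc1 is low with siStag1, and Has2, Gli1 and Stk31 are high with siStag1, while Pou2f3, Gpx2 and Fgf17 are low with siStag2.

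Each called gene can be placed against its siGLO level, because the direct test does not say which knockdown moved. The siGLO libraries are shared by both placements, so the values are given side by side. Over all tested genes the siStag2 libraries did not overlap with siGLO in 26.4% (13.9% higher and 12.5% lower), and the siStag1 libraries did not in 15.7% (8.13% higher and 7.55% lower). Among the 25 higher genes, 17 had all siStag2 libraries above the siGLO range while siStag1 overlapped with it, 4 had siStag2 above and siStag1 below, 3 had siStag1 below while siStag2 overlapped, and 1 overlapped with siGLO in both groups. Among the 34 lower genes, 19 had siStag2 below the siGLO range while siStag1 overlapped, 8 had siStag2 below and siStag1 above, 6 had siStag1 above while siStag2 overlapped, and 1 was below in both. The change from siGLO was the larger one with siStag2 in 46 of the 59 genes and with siStag1 in 13, and its median size was 0.50 on the log2 scale with siStag2 and 0.21 with siStag1. Without Stag1 and Stag2 the counts were 45 and 12. Neither these counts nor the joint placements were made over all tested genes. They therefore do not set the called genes apart from the rest. Over all tested genes the median size was also larger with siStag2 (0.176) than with siStag1 (0.118).

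Tested by itself against siGLO, siStag2 gave 335 called genes (2.24% of those tested), with 145 higher (0.969%) and 190 lower (1.27%), and siStag1 gave 14 (0.0936%), with 2 higher (0.0134%) and 12 lower (0.0802%). These comparisons share the siGLO libraries. With the replicate number as a block, since same-numbered libraries deviated together from their group means in these comparisons, the counts were 677 and 48. An alternative chosen after seeing the data, with the block and only the groups compared, gave the opposite order, 156 for siStag2 and 525 for siStag1, and the cause was not tested. For siStag2 the count was 75 and 161 without its replicates 1 and 3 and 114 and 127 without replicates 1 and 2 of siGLO, and for siStag1 it was 6 without its replicate 1 or 2 and 4 without replicate 2 of siGLO. A gene called with siStag2 and not with siStag1 is not thereby shown to differ, and the direct test between the groups called 59.

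Single genes show the range of these patterns. Sun2 and Nhsl1 were called against siGLO with siStag2 (0.64 ± 0.15, adjusted p = 0.00926, and 0.64 ± 0.14, adjusted p = 0.00938, by edgeR) and not with siStag1 (-0.17 and -0.14). Hhip, which binds and restrains Hedgehog ligands, was at 15.6, 10.3 and 14.3 with siStag2, 45.5, 56.7 and 40.3 with siStag1 and 35.6, 30.9 and 32.8 with siGLO, with the 3 groups fully apart in this low transcript (-1.80 ± 0.31 between the knockdowns, adjusted p = 0.00504 by edgeR). Pck2, the mitochondrial phosphoenolpyruvate carboxykinase, was at 1000.4, 858 and 778, 1523, 1290.1 and 1195 and 1188, 1180.3 and 1096 in the same order of groups, also fully apart (-0.60 ± 0.09, adjusted p = 0.00131). Pdgfc, a PDGF ligand, was at 299.6, 238 and 267, 409, 491 and 474 and 354, 341 and 362 (-0.77 ± 0.12, adjusted p = 0.00131).

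Naive pluripotency genes mark the ground state of mESCs. Of 18 tested genes, 12 fell with siStag2 (1.27% of all tested genes fell, median log2 fold change of the list -0.67 against siGLO) and 3 fell with siStag1, namely Esrrb, Tdh and Mylpf (0.0802% of all tested genes fell, median -0.41). Under the replicate block 15 and 5 fell, against 314 and 30 of all 14963 tested genes under the same block. In the direct comparison 1 of the 18 was called, Klf4, which was lower with siStag2. The median of the 18 was -0.29, against 0.008 over all tested genes, with 16 values below 0, and 6 genes did not overlap, against 24.9% of all tested genes. Without replicate 3 of siStag1 the median was -0.19.

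Klf4, a Kruppel-like factor that helps to maintain the naive state, was at 1228, 1099 and 1167 with siStag2, 1468, 1667 and 1582 with siStag1 and 1707, 1626 and 1622 with siGLO. The siStag2 libraries were the lowest, and the siStag1 and siGLO libraries overlapped (-0.43 ± 0.08, adjusted p = 0.00613 by edgeR). Zfp42, the marker REX1, was at 3973, 4616 and 3787, 5936, 5932 and 5427 and 8364, 7255 and 6619.6, which put siStag1 between the other groups, but its adjusted p of 0.0111 (edgeR, -0.48 ± 0.10) missed the threshold. Nr0b1, the nuclear receptor DAX1, was at 733, 883 and 748, 1389, 1402 and 1147 and 1998, 1689 and 1414 and missed it too (-0.74 ± 0.15, adjusted p = 0.0161 by edgeR).

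Esrrb, an orphan nuclear receptor of the naive network, was at 3488, 3578 and 3776 with siStag2, 3730.3, 4201 and 4718 with siStag1 and 6206, 5881 and 5824 with siGLO. Both knockdowns lay below siGLO (-0.72 ± 0.08 and -0.50 ± 0.08, adjusted p = 4.86e-06 and 0.00226 by edgeR), and they overlapped with each other (-0.22 ± 0.08, adjusted p = 0.117). Tdh, threonine dehydrogenase, behaved likewise, at 2237, 2419 and 2352, 2360.2, 2667 and 2987 and 4754, 4587 and 4458. Nanog was at 3859, 4084 and 4647 with siStag2, 3639, 4768 and 5418 with siStag1 and 5658, 6471 and 6691 with siGLO, and it was called with siStag2 (-0.58 ± 0.13, adjusted p = 0.00926 by edgeR) while siStag1 gave -0.45 ± 0.13 with an adjusted p of 0.147, which the replicate block moved to 0.0032. Between the knockdowns Nanog differed by -0.13 ± 0.13, with a 95% interval of -0.40 to 0.13.

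**Figure D4:**
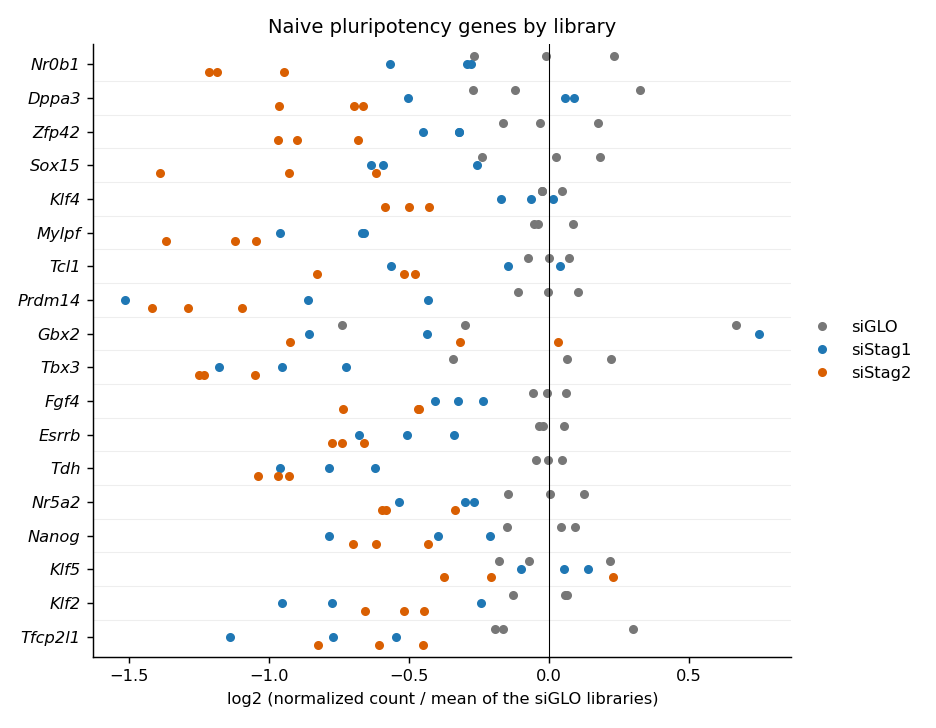
Normalized counts of the 18 tested naive pluripotency genes in each library, divided by the siGLO mean, on a log2 scale (x axis), ordered by the difference between siStag2 and siStag1. Most siStag1 and siStag2 points lie to the left of the siGLO points, and Klf4, Zfp42 and Nr0b1 separate siStag2 from siStag1.

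Of the other cell identity genes the study followed, Pou5f1, which encodes OCT4, was called. It was at 15901, 18162 and 17368 with siStag2, 24277, 22778 and 21460.00 with siStag1 and 24646, 22809.5 and 21235 with siGLO, with siStag2 below both (-0.41 ± 0.08, adjusted p = 0.0095 by edgeR), a difference of 1.33-fold. It was the weakest called gene but 1 by adjusted p, and it was among the genes called under the fewest settings. Sox2 was at 6954, 6682 and 6551 with siStag2, 7721, 8094 and 8009 with siStag1 and 8656, 7375 and 7400.4 with siGLO, without overlap between the knockdowns but not called (-0.24 ± 0.07, adjusted p = 0.0704 by edgeR). The neural markers Pax6 (0.13 ± 0.27) and Nes (0.05 ± 0.19) and the endoderm markers Gata6 (-0.81 ± 0.48) and Sox17 (-0.77 ± 0.55) were not called, and their intervals were wide.

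The endoderm markers differed as a list mainly through 1 library. None of 16 tested members was called, and their median was -0.50. The summed level of the 16 lay between 17691 and 18792 with siStag2, between 18154 and 28127 with siStag1 and between 18355 and 27568 with siGLO. Gata6, a transcription factor of primitive endoderm, was at 76.1, 87.1 and 111 with siStag2, 269, 106 and 104 with siStag1 and 277, 141 and 134 with siGLO. Replicate 1 was the high one with siStag1 and with siGLO, but not with siStag2. Without replicate 1 of siStag1 the median of the list was -0.03, so this value rested on that library. The endoderm genes Afp and Ttr were too low to be tested, with at most 5 raw counts in any siGLO, siStag1 or siStag2 library.

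The list of targets of SRF, the serum response factor, and of muscle actin genes had the largest median in the positive direction. Of 15 tested members none was called in the direct comparison, while 14 were above 0 and 11 did not overlap (24.9% of all tested genes did not), with a median of 0.56. Actc1 and Tnnc1 were not in this list. Acta2, smooth muscle alpha-actin, was at 2294, 2914 and 2556 with siStag2, 460.2, 1040.1 and 915 with siStag1 and 559.7, 1522 and 1238 with siGLO (1.69 ± 0.41, adjusted p = 0.0445 by edgeR). Cnn1, calponin, was at 1034, 1268 and 1094 with siStag2, 486, 670.1 and 619 with siStag1 and 431, 603 and 497 with siGLO (0.94 ± 0.19, adjusted p = 0.0152). Replicate 1 was the lowest in Acta2 with siStag1 and with siGLO, and the siStag2 libraries were above all others in both genes.

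Against siGLO, 3 members of this list rose with siStag2 (0.969% of all tested genes did), namely Cnn1 (1.15 ± 0.19), Myl9 (1.06 ± 0.17), a myosin regulatory light chain, and Vcl (0.52 ± 0.09), the adhesion protein vinculin, and none was called with siStag1. With the replicate block 5 members rose with siStag2, against 363 of all 14963 tested genes under the same block. The summed level of the list lay between 54275 and 59495 with siStag2, between 29509 and 45042 with siStag1 and between 29788 and 48296 with siGLO. Without replicate 1 of siStag1 the list's median was 0.43, and over all single-library omissions it lay between 0.43 and 0.57. Srf itself was at 2133, 2236 and 2026 with siStag2 and 1865, 2098 and 1887 with siStag1, and these overlapped (0.13 ± 0.07). Fibroblast and feeder markers, a cell type that also expresses contractile genes, had no called member among 13 tested, with 10 above 0, a median of 0.23 (0.08 without replicate 1 of siStag1 and 0.53 without its replicate 3), and summed levels of 16773 to 18458 with siStag2, 9664 to 15094 with siStag1 and 9288 to 16633 with siGLO. This list shares Acta2 with the SRF list, and its other 12 members summed to 13859 to 16164 with siStag2, 9204 to 14179 with siStag1 and 8728 to 15395 with siGLO, so the knockdowns overlapped without it. Postn, periostin of fibroblasts, was at 0, 0 and 1.02 with siStag2 and 1.94, 0 and 0.983 with siStag1. Col1a1 was at 216, 234 and 323 with siStag2, 71.7, 290.02 and 355 with siStag1 and 127, 473 and 639 with siGLO, and the knockdowns overlapped. The part of such cells in the SRF list's values was not tested.

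Signalling lists held single called members. Of 15 tested Wnt targets, Axin2 was called (0.394% of all tested genes were), and 8 members did not overlap (24.9% of all tested genes did not). The median of the list was 0.25, and 0.12 without replicate 1 of siStag1. Lef1, a transcription factor that binds beta-catenin, was at 818, 596 and 565 with siStag2 and 528, 313 and 282 with siStag1 (0.82 ± 0.24, adjusted p = 0.0712 by edgeR), while Notum, a secreted Wnt inhibitor, was at 123, 149 and 105 and 156, 198 and 162 (-0.45 ± 0.15), so single members differed in both directions. Of 22 FGF and ERK feedback genes, Fgf17 was called (median -0.01). Dusp6 and Spry4, feedback inhibitors of ERK signalling, differed by -0.07 ± 0.21 and -0.25 ± 0.19. Of 13 genes of the LIF and STAT3 pathway, Klf4 was called (median -0.05). Bcl3, an IkappaB-family protein, was at 664, 629 and 695 with siStag2, 389, 456 and 508 with siStag1 and 424, 495 and 453 with siGLO, and missed the threshold (0.56 ± 0.11, adjusted p = 0.012 by edgeR). The Nodal and activin pathway (18 genes, median 0.04) and the BMP pathway (16 genes, median 0.13, and 0.04 without replicate 1 of siStag1) had no called member.

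Germline and meiosis genes, many of which are silenced by DNA methylation in other tissues, had no called member among 22 tested in the direct comparison and a median of -0.33. Of the 22, 17 were below 0 and 11 did not overlap, against 24.9% of all tested genes. Tex11, a meiotic gene of the X chromosome, was at 292, 295 and 349 with siStag2, 545, 520.04 and 494 with siStag1 and 288, 253 and 260.2 with siGLO. The siStag1 libraries were above all others, with 0.96 ± 0.15 against siGLO (adjusted p = 0.00285 by edgeR) and -0.74 ± 0.15 between the knockdowns (adjusted p = 0.0137). Taf7l, a germ-cell TFIID subunit, was at 131, 127 and 129 with siStag2, 210.3, 243 and 219 with siStag1 and 112, 121 and 109.9 with siGLO (-0.80 ± 0.19, adjusted p = 0.0281). Stk31, which was called and is also expressed in germ cells, was not in this list.

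In the metabolic lists members shared a sign without being called. All 20 sterol synthesis genes were above 0 (median 0.28) and none was called. For Lss, lanosterol synthase, the values were 1748, 1747 and 2005 with siStag2 and 1166, 1327 and 1599 with siStag1 (0.43 ± 0.12, adjusted p = 0.054 by edgeR). All 20 genes of the amino acid stress and unfolded protein response were below 0 (median -0.17), again with none called in the direct comparison. Cth, cystathionine gamma-lyase, was at 2514, 2579.6 and 2222 with siStag2, 3739.96, 3631 and 3079 with siStag1 and 4046, 3771 and 3219 with siGLO (-0.51 ± 0.12, adjusted p = 0.0295), and Asns and Cth were called as lower against siGLO with siStag2. All 30 cytosolic ribosomal protein genes were below 0 (median -0.15), and 22 of 25 glycolysis and hypoxia genes were above 0 (median 0.15), with no called member in either. The ribosomal median was -0.06 without replicate 1 of siStag2 and -0.27 without its replicate 2, and the glycolysis median was 0.23 without replicate 1 of siStag2, 0.05 without its replicate 3 and 0.07 without replicate 2 of siStag1. The siStag2 and siStag1 libraries did not overlap in 5 of the 20 sterol synthesis genes and 6 of the 20 amino acid stress genes. They did not in 2 of the 30 ribosomal protein genes and 3 of the 25 glycolysis genes, against 24.9% of all tested genes. Genes of 1 list are not independent observations, so these counts carry no test.

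**Figure D5:**
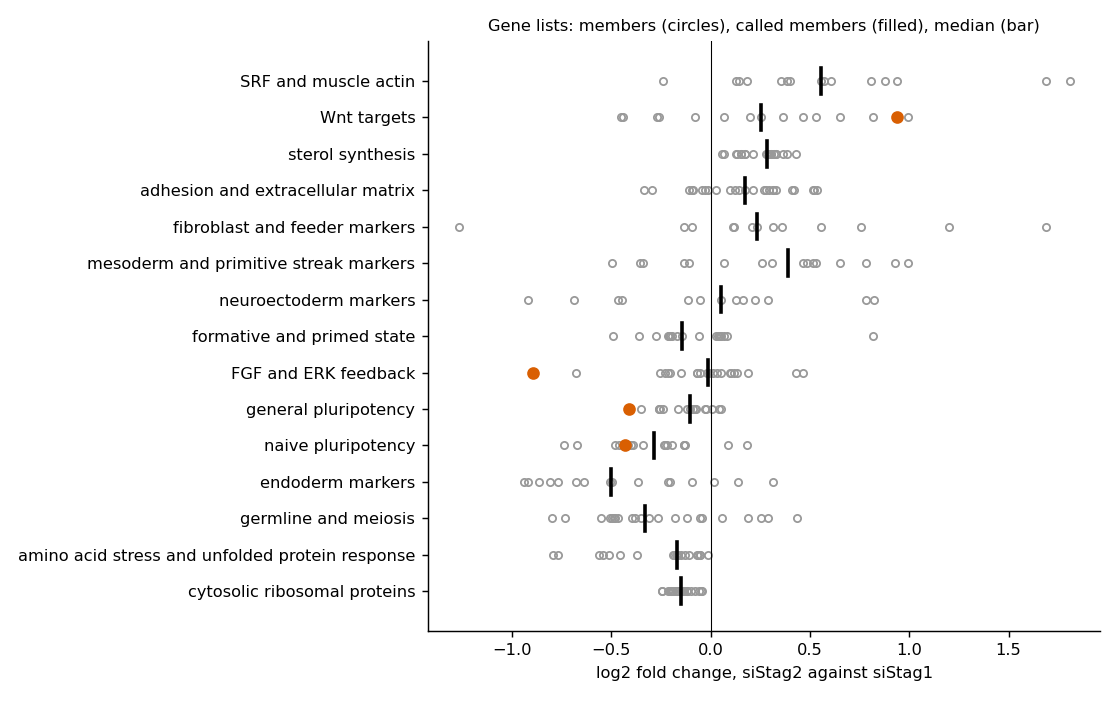
Log2 fold change of siStag2 against siStag1 (x axis) for the tested members of 15 gene lists, with open circles for members, filled circles for called members and a bar for the median. The SRF and muscle actin list has the highest median (0.56) and the endoderm markers the lowest (-0.50), and called members are single genes.

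The remaining lists had, apart from Pou5f1, no called member. Formative and primed genes had a median of -0.14 (19 tested), neuroectoderm markers 0.05 (13), mesoderm and primitive streak markers 0.39 (16), trophoblast markers 0.25 (12) and two-cell-like markers -0.17 (18). General pluripotency genes had a median of -0.11 (17 tested) with Pou5f1 called. The median was 0.17 for adhesion and extracellular matrix genes (25), 0.30 for Hox genes (22), 0.02 for clustered protocadherins (9), 0.07 for imprinted genes (32), 0.04 for Polycomb genes (25) and -0.02 for DNA methylation genes (13). It was 0.22 for interferon response genes (17) and 0.19 for RNAi genes and sensors of transfected RNA (8). For condensin and SMC5/6 genes it was 0.03 (12), for mitosis genes -0.05 (25), for DNA replication genes -0.04 (27), for recombination and Fanconi genes -0.02 (18) and for p53 targets 0.00 (20). Over omissions of 1 library the median lay between 0.14 and 0.44 for mesoderm and primitive streak markers, 0.10 and 0.46 for trophoblast markers, 0.11 and 0.21 for adhesion and extracellular matrix genes, 0.19 and 0.42 for Hox genes, 0.16 and 0.35 for interferon response genes and -0.16 and -0.06 for formative and primed genes. The lowest values for mesoderm, trophoblast and adhesion genes were those without replicate 1 of siStag1. Medians of other lists changed sign, since neuroectoderm markers were at -0.31 without replicate 1 of siStag2 and two-cell-like markers at 0.20 without replicate 2 of siStag1. In the mesoderm list single genes lay between -0.50 and 1.00, and T, the primitive streak gene Brachyury, was at 111, 131 and 73.6 with siStag2 and 34.9, 66.7 and 57 with siStag1 (1.00 ± 0.82, adjusted p = 0.533 by edgeR).

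Because SRF binds the CArG box, promoters of the called genes were searched for it on both strands, over 250 bases before to 50 after the start of each gene (RefSeq, GRCm38.p6). A promoter was found for 18 of the 25 higher genes and 27 of the 34 lower genes. A CArG box was present in 1 of the 18 (5.56%, Actc1) and in 2 of the 27 (7.41%, Eif2s1 and Pdgfc), against 174 of 10917 tested genes (1.59%) and 535 of 32851 promoters in all (1.63%). The box lay 47 bases before the start of Actc1, 106 before that of Eif2s1 and 17 before that of Pdgfc. It was thus in promoters of genes of both directions. The 3 promoters are printed 5′ to 3′ along each gene's strand, with the box in capitals, because Actc1 is the most increased gene and the others show the same letters in decreased genes. A match says only that the letters are present.
Actc1, chr2:114052826-114053125, minus strand: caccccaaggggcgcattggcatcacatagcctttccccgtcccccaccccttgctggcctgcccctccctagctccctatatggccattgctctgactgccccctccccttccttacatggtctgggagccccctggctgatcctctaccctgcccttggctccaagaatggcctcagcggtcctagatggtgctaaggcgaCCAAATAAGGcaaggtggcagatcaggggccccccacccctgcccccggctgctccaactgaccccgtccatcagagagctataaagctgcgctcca
Eif2s1, chr12:78861822-78862121, plus strand: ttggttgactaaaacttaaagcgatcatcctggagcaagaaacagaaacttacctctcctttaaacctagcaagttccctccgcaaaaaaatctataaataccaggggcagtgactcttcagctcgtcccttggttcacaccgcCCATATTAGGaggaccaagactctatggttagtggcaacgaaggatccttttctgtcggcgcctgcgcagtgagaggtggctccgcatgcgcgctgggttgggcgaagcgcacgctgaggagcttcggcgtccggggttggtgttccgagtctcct
Pdgfc, chr3:81036166-81036465, plus strand: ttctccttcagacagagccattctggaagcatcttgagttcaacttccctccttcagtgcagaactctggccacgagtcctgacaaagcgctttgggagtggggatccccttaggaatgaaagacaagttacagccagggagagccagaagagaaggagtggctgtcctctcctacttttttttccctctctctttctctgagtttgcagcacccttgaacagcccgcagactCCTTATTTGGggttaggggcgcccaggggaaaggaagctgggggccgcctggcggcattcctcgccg

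The called genes were spread over the genome. Each of chromosomes 1 to 19 and X held between 1 and 6 of them, and the median log2 fold change of the tested genes of a chromosome was between -0.02 and 0.03. The 6 on chromosome 14 were 1.19% of its tested genes, against 0.394% over all tested genes. On the other chromosomes the share was between 0.128% and 0.569%. Jph4 and Pck2, both lower with siStag2, were the only pair of called genes within 1 Mb of each other, 423330 bases apart on chromosome 14. The median annotated length was 42035 bases for the higher genes and 23548 for the lower genes, against 23045 over the tested genes.

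The levels of the leading genes in the other conditions are given as a description. Klf4 averaged 3366 ± 102 (SD, n = 3) in WT siGLO libraries, 1652 ± 48.3 in Pds5a-KO siGLO libraries and 616 ± 42.3 in Pds5a-KO libraries given siPds5b, against 1165 ± 64.2 with siStag2. Gli1 averaged 460.1 ± 61.5, 354 ± 49.98 and 84.5 ± 20.2 in those conditions, against 569 ± 78.7 with siStag1. Has2 averaged 312 ± 75.4 in WT siGLO libraries, above its level of 205 ± 5.2 with siStag1. Actc1 averaged 59.3 ± 19.98 in WT siGLO libraries and 161 ± 79.3 with siPds5b, against 259.8 ± 56.5 with siStag2, and the spread with siPds5b was wide.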

How the data were processed

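RNA was measured in 7 conditions of mESCs with 3 libraries each, and the files hold raw counts per gene symbol (23412 symbols) that the authors deposited without normalization. Per the study's methods, poly-A libraries were sequenced as paired-end reads and aligned to mm10 with STAR. The counting tool, annotation and strand setting are not given in the sources used here, so counts of overlapping and antisense genes cannot be separated. Groups came from the sample titles. Some items are not reported here.

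Genes with enough counts over the 7 conditions (edgeR's filterByExpr, 14963 genes) entered 1 quasi-likelihood model of the 21 libraries with TMM factors and robust dispersion (edgeR 4.0.16, R 4.3.3), which was checked on simulated data. Called genes had a Benjamini-Hochberg adjusted p under 0.01, and standard errors were the size of the log2 fold change divided by the square root of F. Counts of 17311090 to 20791962 per knockdown library limit precision for low genes. Normalized counts are TMM CPM scaled to the mean effective library size.

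Named genes were the 12 largest increases and 12 largest decreases among called genes whose log2 CPM averaged 1 or more and whose groups did not overlap, the targeted and cohesin genes, the 7 cell identity genes of the study and up to 4 members of each gene list with the smallest p. The comparison, the 38 gene lists (685 symbols) and the tests were chosen with earlier results of these data known. Positions came from GENCODE M21 (mm10), promoters from RefSeq. Alternatives were DESeq2 1.42.0, RLE or library size scaling, other filters, only the groups compared, the replicate number as a block, other thresholds and leaving out each library.

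The main model did not use replicate numbers as pairing, and they entered only as a block in the alternatives. Over 11735 genes, deviations of same-numbered libraries from their group means correlated in every pair with siGLO. The correlations were 0.14, 0.26 and 0.23 for siStag2 and 0.62, 0.15 and 0.54 for siStag1. For siStag2 against siStag1 they were -0.01, -0.03 and 0.28. All replicate pairs differed by more than sampling noise (chi-square per gene between 4.77 and 25.1). The values were 18.6, 19.9 and 22.8 between the siStag2 libraries and 8.69, 12.7 and 5.02 between the siStag1 libraries. The spread thus differed between the compared groups, while the main model shares its estimate of the spread over all groups.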

Additional observations from a re-analysis of the deposited data

Results flagged for a closer look

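For 12 of the 59 called genes, every library of one knockdown lay above the siGLO libraries and every library of the other lay below them, and the direct test between the knockdowns passed the threshold (adjusted p under 0.01, edgeR's quasi-likelihood test). Genes called for a difference between the knockdowns are more prone to this pattern, and its share over all tested genes was not counted. Over all tested genes the siStag2 libraries did not overlap with siGLO in 26.4%, and the siStag1 libraries did not in 15.7%. The targeted genes are among them, with log2 fold changes, siStag2 against siStag1, of 2.23 for Stag1 and -2.23 for Stag2. Higher with siStag2 were Stmn4 (1.78), Clic5 (1.37) and Sh3bgr (1.34). Lower with siStag2 were Hhip (-1.80), Myb (-0.83), Pdgfc (-0.77), Ggct (-0.70), Zbtb32 (-0.66), Pck2 (-0.60) and Aldh2 (-0.45). Stmn4, Sh3bgr and Hhip have a mean log2 CPM below 1. Tested against siGLO, 2 of the 10 untargeted genes, Stmn4 (1.58, adjusted p = 0.00538 by edgeR) and Clic5 (0.97, adjusted p = 0.00714), were called with siStag2 and none was called with siStag1. With the replicate block Pck2 (-0.40, adjusted p = 0.00315) and Myb (-0.59, adjusted p = 0.00619) were called with siStag2 as well.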

How the results depend on the processing

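Counts of called genes depended on the model, and each is given as all, higher and lower. For siStag2 against siStag1 (59, 25 and 34) they were 275, 146 and 129 with DESeq2, 276, 161 and 115 with the replicate block, 94, 58 and 36 with only the groups compared, 358, 191 and 167 at an adjusted p under 0.05, and 15, 9 and 6 where the change also had to reach 1 on the log2 scale. For siStag2 against siGLO (335, 145 and 190) they were 770, 391 and 379, then 677, 363 and 314, 93, 31 and 62, 1196, 615 and 581, and 47, 18 and 29 under the same alternatives in the same order. For siStag1 against siGLO (14, 2 and 12) they were 74, 32 and 42, then 48, 18 and 30, 8, 1 and 7, 50, 17 and 33, and 1, 0 and 1.

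An alternative chosen after seeing the data, only the groups compared with the replicate block, gave 110, 72 and 38, then 156, 61 and 95, and 525, 251 and 274. Under it Stag2 after siStag1 passed the threshold (0.33, adjusted p = 0.000172 by edgeR), while over the other settings its adjusted p lay between 0.0722 and 0.535. In the direct comparison the replicate numbers did not pair the libraries, so the block there is an alternative only. Leaving out 1 library gave 6 to 19 calls (1 to 3 higher, 5 to 16 lower) in the direct comparison, 75 to 386 (14 to 162 higher, 61 to 224 lower) for siStag2 against siGLO and 4 to 15 (0 to 2 higher, 4 to 13 lower) for siStag1 against siGLO. The lowest of these were without replicate 1 of siStag2 (6 and 75) and without replicate 2 of siGLO (4). The cause of these shifts was not tested beyond the smaller number of libraries.

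Of the 59 genes, DESeq2 and the block kept 59 as called, RLE scaling 58, no filter on low counts 57, a minimum of 10 counts in every library 54, library size scaling 47, only the groups compared 39, and only the groups compared with the block 33. Each of the 59 kept its direction wherever it was tested, and 1 was not tested with the minimum of 10 counts. Among the recomputed values of single genes and lists, 2861 kept their direction and their side of the threshold, 354 lost a call, 60 gained one, 17 without a test moved by more than the spread between libraries and none was reversed. With 3 libraries a group, the standard errors limit what could be detected, most in genes of low counts.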

Other observations

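Gli1 and Hhip are both known targets of Hedgehog signalling and were both lower with siStag2 than with siStag1, so other genes of the pathway were read after these values were seen. In the direct comparison none of those given here passed the threshold (edgeR's quasi-likelihood test, log2 fold change ± SE). The receptor gene Ptch1, which is also a target, differed by 0.00 ± 0.12. The transducer Smo differed by 0.21 ± 0.10, the inhibitor Sufu by 0.14 ± 0.10, and the transcription factors Gli2 and Gli3 by 0.17 ± 0.14 and 0.53 ± 0.23. The ligand co-receptors Boc, Cdon and Gas1 differed by 0.55 ± 0.17, 0.30 ± 0.18 and 0.37 ± 0.17. Against siGLO, Smo was called with siStag2 (0.46, adjusted p = 0.00499).

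Lyz2, the macrophage lysozyme, was at 79, 1 and 0 raw counts in replicates 1, 2 and 3 of siStag2, at 1, 0 and 0 with siStag1 and at 67, 68 and 110 with siGLO. In the other conditions it was at 67, 77 and 57 (WT siGLO), 0, 1 and 0 (WT siPds5b), 1, 136 and 192 (Pds5b-KO siGLO) and 47, 0 and 0 (Pds5a-KO siPds5b). Each library thus held either at most 1 count or at least 47, and libraries of 1 group fell on both sides in 3 of the 7 conditions.

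Ntrk2, which encodes the neurotrophin receptor TrkB, was called but had a mean log2 CPM below 1. It was at 18.5, 24.1 and 22.5 normalized counts with siStag2, 71.7, 66.7 and 51.1 with siStag1 and 53.8, 32.7 and 34.7 with siGLO (-1.54 ± 0.27 between the knockdowns, adjusted p = 0.00549 by edgeR). The siStag2 libraries lay below both other groups, and the siStag1 libraries overlapped with siGLO.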
